A study of Oryza sativa Japonica Group with 9 samples.

Results

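Roots of nitrogen-deficient rice were compared with roots of rice given control nutrients, gene by gene, from 3 libraries of each group. These are 6 of the 9 root libraries of the series, and every gene of the deposited table for this pair was used. The plants were Oryza sativa of the Japonica cultivar Nipponbare, the variety whose genome serves as the rice reference, and the tissue was root. Control libraries carry the treatment label CK and the deficient libraries the label for N deficiency. The other 3 libraries, from P-deficient roots, enter 1 contrast at the end. No label gives the nutrient concentrations, the length of the treatment or the age of the plants. The design text calls the replicates biological and does not say whether plants were pooled, so p-values measure the spread between these libraries.

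Rice roots take up nitrogen as ammonium and nitrate, and as urea and amino acids where these are present. High-affinity nitrate transporters of the NRT2 family work with the partner protein NAR2, AMT proteins carry ammonium, and members of the NRT1/PTR family (POT domain) carry nitrate and peptides. Inside the cell nitrate is reduced to nitrite and ammonium, which glutamine synthetase and glutamate synthase build into amino acids, and NIN-like proteins with an RWP-RK domain regulate much of the nitrate response.

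Levels are normalised reads, the read count of a gene divided by 1 size factor per library, and are given for libraries 1, 2 and 3 of a group in that order. A log2 difference is N deficiency minus control on the log2(value + 1) scale, with its SE, and understates the change of low genes. A gene rose or fell where limma gave a Benjamini-Hochberg adjusted p under 0.05. Of 35128 genes in the table, 32680 had a group mean of at least 1 and were tested. In all, 2254 rose, which is 6.9% of genes tested, and 1940 fell, which is 5.94%, so that 12.8% were called. Leaving out N library 3, control library 1 or control library 2 brought the number called from 4194 to 2622, 2749 and 2633. At least a 2-fold step, 1 on the log2 scale, was passed by 1066 of those that rose and 1147 of those that fell, together 6.77% of genes tested. At 3 on the log2 scale 66 genes had risen and 116 had fallen. The groups did not overlap for 30.9% of genes tested.

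Genes with high levels were called more often than genes with low levels. Among genes with a mean of over 1000 normalised reads 13.6% rose and 8.54% fell, against 1.20% and 1.42% of genes with a mean under 10. Loci with a protein domain rose in 8.75% and fell in 6.36% of genes, annotated loci without one in 5.31% and 6.16%, and loci that the table numbers apart from the annotation in 4.72% and 6.71%. Counts for gene families below are to be read against these shares. Families were formed from the deposited protein domain descriptions, and no test of a family as a whole was made. The table pairs 199 genes with a symbol. Names of other genes are those in general use for these locus numbers, and a locus number alone is given where no such name was used. Of 525 called genes that the naming rule gave, 361 passed in every alternative processing of the comparison with control. All called genes named below are among these unless a lost call is stated.

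The libraries held 17931041 to 22752492 reads assigned to genes. The 3 root markers checked were high in all 6 libraries and did not pass the test. CASP1, also listed as a root marker, was not among them. RCc3, a root-specific gene, ranged from 45269 to 76728 normalised reads, the silicon transporter LSI1 from 21741 to 38754 and the silicon transporter LSI2 from 25438 to 43649. Photosynthesis genes, which mark shoot tissue, were lower under N deficiency. Summed over 43 genes they stood at 27689, 44172 and 74483 normalised reads in control and 10244, 12800 and 9084 under N deficiency, with 30 of 43 lower and 0 higher. RCA, which encodes Rubisco activase, had 2319, 3702 and 6643 against 1098, 1153 and 821. Between 0 and 4 of the 43 genes were at 0 in a library, and control library 3 was the highest in the sum and N library 3 the lowest. The count of 30 fell to 18 without N library 3. In bulk RNA, fewer cells of a type and less RNA per cell cannot be told apart, and the part of these genes in other results was not tested.

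**Figure D1:**
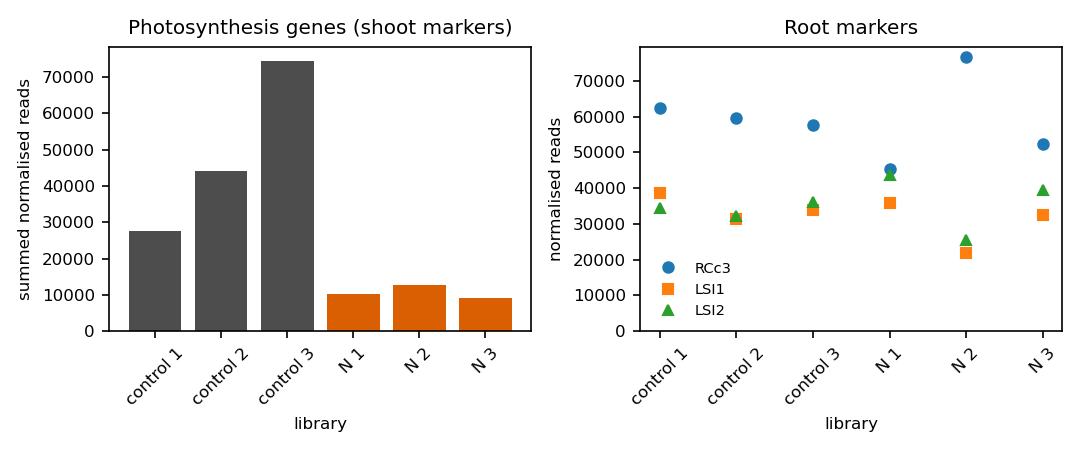
Left, normalised reads summed over 43 nuclear photosynthesis genes in each library (y axis, from 0). Right, normalised reads of the root markers RCc3, LSI1 and LSI2 in the same libraries. Control bars run from 27689 to 74483 and N-deficiency bars from 9084 to 12800, while the root markers overlap between the groups.

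Nitrate uptake genes were among the largest rises. NRT2.4, a nitrate transporter of the root (chromosome 1, 20385993 to 20388511), had 17.3, 17.5 and 30.7 normalised reads in control and 8901, 7104 and 8091 under N deficiency. NRT2.1, a high-affinity transporter of the root surface, had 14.96, 11.6 and 11.2 in control and 1424, 1042 and 1255 under N deficiency. Its neighbour NRT2.2 (chromosome 2, 667264 to 669053) had 119, 103 and 124 in control and 1455, 1045 and 1455 under N deficiency. In all of these genes every N-deficient library lay far above every control library. The log2 differences of NRT2.4, NRT2.1 and NRT2.2 were 8.50 ± 0.213, 6.51 ± 0.180 and 3.49 ± 0.154 (adjusted p = 1.1e-06, 1.7e-06 and 1.8e-05 by limma and Benjamini-Hochberg). NRT2.1 and NRT2.2 are near-identical copies, so the split of reads between them is uncertain.

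NRT2.3, whose long form loads nitrate into the xylem, had 343, 450 and 368 normalised reads in control and 12096, 8392 and 15198 under N deficiency. NAR2.1, the partner that brings NRT2 proteins to the membrane, had 2246, 1978 and 2572 and 30491, 21946 and 32508. Their log2 differences were 4.91 ± 0.207 and 3.63 ± 0.172 (adjusted p = 1.6e-05 and 2.2e-05 by limma and Benjamini-Hochberg). Both NAR2-type genes of the table rose, with groups that did not overlap. Os04g0480200, the other of them, went from 27.6, 35.9 and 46.5 to 644, 509 and 815. Per length the order of these genes changed: in reads per kilobase of gene length per 1e6 reads assigned to genes (RPKM), control roots had NAR2.1 at 115 ± 12.7, NRT2.3 at 8.98 ± 1.44, NRT2.2 at 3.10 ± 0.237, NRT2.4 at 0.593 ± 0.197 and NRT2.1 at 0.317 ± 0.0538 (SD, n = 3). Under N deficiency NAR2.1 stood at 1411 ± 270.2 RPKM, NRT2.3 at 270.4 ± 72.4, NRT2.4 at 216 ± 27.9, NRT2.2 at 35.0 ± 6.31 and NRT2.1 at 30.8 ± 5.24. NRT2.3 and NRT2.4 lay within each other's spread there, as did NRT2.2 and NRT2.1.

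Transporters of the NRT1/PTR family moved both ways. Of 88 tested, 16 rose and 7 fell, with a median log2 difference of 0.32 against -0.0082 over all genes tested. The counts were 10 and 5 without N library 3, 12 and 4 without control library 1 and 11 and 4 without control library 2. NRT1.1B, a nitrate transporter and sensor (chromosome 10, 21757771 to 21762202), had 5541, 3908 and 5668 in control and 511, 508 and 509 under N deficiency. It differed by -3.28 ± 0.144 in log2 (adjusted p = 1.8e-05 by limma and Benjamini-Hochberg). Its mean level per length went from 102 ± 18.3 to 10.1 ± 0.340 RPKM (SD, n = 3). NRT1.1A, a close relative, had 665, 439 and 459 and 429, 447 and 457 with overlapping groups, and did not pass. A model on the opposite strand overlaps most of NRT1.1A and had higher mean levels, 3423.5 in control and 3166 under N deficiency. That model was not called, and overlapping models can share reads.

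Another POT gene, Os01g0871500, fell from 5717, 4630.4 and 5823 to 949, 908 and 1291 normalised reads, a log2 difference of -2.37 ± 0.155 (adjusted p = 9.7e-05 by limma and Benjamini-Hochberg). Among those that rose, NPF2.4, which takes part in low-affinity nitrate uptake and transport to the shoot, went from 4266, 3941 and 4101 to 7120, 9964 and 10937. NPF2.2, which unloads nitrate from the xylem, went from 34.5, 20.4 and 26.0 to 75.1, 239.9 and 153. The 2 genes rose by 1.16 ± 0.160 and 2.37 ± 0.404 in log2 (adjusted p = 0.0024 and 0.0063 by limma and Benjamini-Hochberg). N library 2 was the highest for NPF2.2 and N library 3 for NPF2.4.

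Ammonium transporters rose in 6 and fell in 2 of 18 genes. AMT1;1, a main ammonium transporter of rice roots, had 590.5, 611 and 986 in control and 1414, 1589 and 1717 under N deficiency. AMT1;3 (chromosome 2, 24683709 to 24685205) had 6.91, 1.94 and 7.44 and 132, 45.8 and 86.1. AMT1;2, its neighbour, had 169, 111 and 244 and 148, 137 and 178, with groups that overlapped, and did not pass. The rises of AMT1;1 and AMT1;3 were 1.15 ± 0.192 and 3.81 ± 0.520 in log2 (adjusted p = 0.0058 and 0.0023 by limma and Benjamini-Hochberg). The count of 6 was 4 or 5 with any library left out, and 1 fell without N library 1 or 3 or control library 1 or 3. The locus Os01g0831250, with an ammonium transporter domain, fell from 433, 514 and 632 to 113, 221 and 92.0, a difference of -1.97 ± 0.301 in log2 (adjusted p = 0.0038 by limma and Benjamini-Hochberg). It shares 1047 bases with Os01g0831300 on the opposite strand, which fell from a mean of 15.3 to 2.66, and overlapping models can share reads.

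Carriers of urea and ureides changed as well. DUR3, which encodes a high-affinity urea transporter (chromosome 10, 23156882 to 23159586), had 2242, 2315 and 3758 normalised reads in control and 16352, 10108 and 17990.5 under N deficiency. It rose by 2.42 ± 0.260 in log2 (adjusted p = 8.2e-04 by limma and Benjamini-Hochberg), from 53.1 ± 15.3 to 280.1 ± 76.4 RPKM (SD, n = 3), which put it beside NRT2.3 and NRT2.4 in level. A pair of neighbouring loci with a ureide permease domain went opposite ways. Os12g0503000 (chromosome 12, 19180665 to 19185915) fell from 9561, 8924 and 9887 to 164, 268 and 184, a difference of -5.55 ± 0.171 in log2 (adjusted p = 2.2e-06 by limma and Benjamini-Hochberg). Os12g0502800 (chromosome 12, 19161739 to 19165120) rose from 4851, 4396 and 5250.5 to 8022, 7251 and 9144, by 0.75 ± 0.124 in log2 (adjusted p = 0.0056 by limma and Benjamini-Hochberg). In control roots Os12g0503000 was the higher of the pair per length in mean, 121 ± 3.95 against 110.1 ± 7.49 RPKM, and under N deficiency it stood at 2.59 ± 0.704 against 182 ± 17.7.

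Amino acid and related carriers rose more often than they fell. Of 31 amino acid permease genes 7 rose and 0 fell, with a median of 0.73, and the count was 4 without N library 3 or control library 1 and 3 without control library 2. Os03g0641250 of this group went from 269, 366 and 324 to 969, 744 and 1151, by 1.56 ± 0.177 in log2 (adjusted p = 9.9e-04 by limma and Benjamini-Hochberg). Of 53 genes of the Aa_trans amino acid transporter family 11 rose and 6 fell. The falls were 4 without any 1 of the N libraries or control library 3 and 3 without control library 1 or 2.

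EamA-like transporters, a family that in Arabidopsis includes the UMAMIT amino acid exporters, rose in 7 and fell in 4 of 45 genes, with a median of -0.044. Os05g0409500 had 32.2, 41.7 and 45.6 normalised reads in control and 931, 651 and 642 under N deficiency, and Os06g0210000 had 5.75, 4.85 and 7.44 and 108, 108 and 84.1. Os10g0210500 went the other way, from 2949, 2636 and 2943 to 141, 159.6 and 138. In log2 they differed by 4.18 ± 0.197, 3.86 ± 0.273 and -4.27 ± 0.103 (adjusted p = 2.2e-05, 1.3e-04 and 1.1e-06 by limma and Benjamini-Hochberg). None of the 3 had groups that overlapped, which the naming rule required. Os01g0803300 fell from 7925, 6847 and 12469.6 to 3185, 2436 and 2181.

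**Figure D2:**
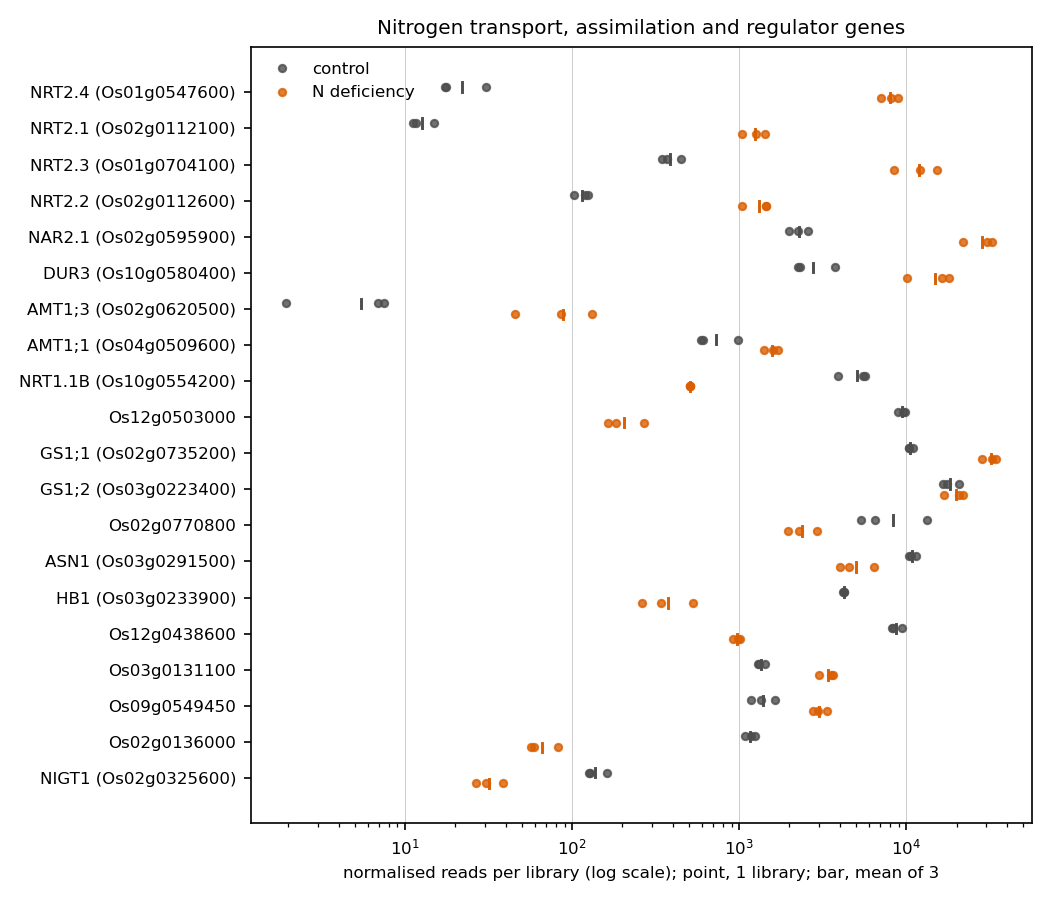
Normalised reads (x axis, log scale) of 20 genes of nitrogen transport, assimilation, storage and regulation in the control and N-deficient libraries. Points are single libraries and short bars the means of 3. NRT2 genes lie to the right under N deficiency, NRT1.1B, Os12g0503000, HB1, Os12g0438600 and Os02g0136000 to the left, and GS1;2 overlaps.

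Anion channels changed in both directions. Os12g0438600, with a voltage-gated chloride channel (CLC) domain, had 8367, 8272 and 9412 normalised reads in control and 913, 987 and 1015 under N deficiency, a log2 difference of -3.16 ± 0.0976 (adjusted p = 2.2e-06 by limma and Benjamini-Hochberg). In Arabidopsis a member of this family moves nitrate into the vacuole. Os01g0226600, with the domain of SLAC-type anion channels, rose from 56.4, 26.2 and 26.0 to 249, 288 and 369. Os06g0268800, with an aluminium-activated malate transporter domain, rose from 722, 774 and 709.5 to 1332, 1355 and 1348. Of 27 genes 3 rose and 5 fell, and the falls were 3 without N library 3 or control library 1 or 2.

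Of 8 genes on the list of nitrate and nitrite reductases 0 rose and 3 fell, and 1 fell without N library 3. The nitrate reductase locus Os02g0770800 had 6528, 5356 and 13253 normalised reads in control and 2912, 1952 and 2291 under N deficiency, with control library 3 well above the others. Its log2 difference was -1.72 ± 0.309 (adjusted p = 0.008 by limma and Benjamini-Hochberg). NIA1 (Os08g0468100), a nitrate reductase, had 3414, 3500.5 and 6810 and 2544, 1936 and 2151, again with control library 3 the highest. NIA1 differed by -0.98 ± 0.252 in log2 (adjusted p = 0.037 by limma and Benjamini-Hochberg). That call was lost without N library 1, 2 or 3 and without control library 2, where the adjusted p from limma with Benjamini-Hochberg was 0.0646, 0.109, 0.114 and 0.056. The nitrite and sulphite reductase locus Os01g0357100 had 176, 177 and 174 and 185, 157 and 184, with overlapping groups, and did not pass.

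Cytosolic glutamine synthetases differed in their response. GS1;1, a cytosolic form, had 10387, 10950.4 and 10334 normalised reads in control and 28528, 34699 and 32775 under N deficiency. GS1;2, the main cytosolic form of rice roots under ammonium supply, had 17661, 16519 and 20605 and 20826, 16795 and 21734, with overlapping groups. Per length, GS1;2 led in control at 609 ± 57.3 against 293 ± 15.1 RPKM for GS1;1, and GS1;1 led under N deficiency at 874 ± 74.9 against 649.7 ± 83.2 (SD, n = 3). NADH-GOGAT2, a glutamate synthase, rose from 24.2, 25.2 and 28.8 to 138, 82.4 and 94.9. The log2 differences of GS1;1 and NADH-GOGAT2 were 1.60 ± 0.131 and 1.94 ± 0.245 (adjusted p = 2.6e-04 and 0.0016 by limma and Benjamini-Hochberg). Over the 6 genes of this list 2 rose and 0 fell.

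Among genes of asparagine metabolism, a synthetase fell and an asparaginase rose. ASN1, an asparagine synthetase, fell from 11447, 10441 and 10619 to 4559, 6406 and 4008. ASN1 differed by -1.15 ± 0.170 in log2 (adjusted p = 0.0034 by limma and Benjamini-Hochberg). Os06g0265000, the other synthetase called, rose from 792, 845 and 615 to 1627, 1696 and 1626. Os04g0650700, with an asparaginase domain, which releases ammonium from asparagine, rose from 581, 499 and 307 to 2518, 2972 and 2438. Its log2 difference was 2.56 ± 0.216 (adjusted p = 2.9e-04 by limma and Benjamini-Hochberg). Os04g0680400, with an amidohydrolase domain, the kind found in allantoinase of ureide breakdown, rose from 379, 583 and 477 to 3980.4, 3671 and 4301, by 3.07 ± 0.154 (adjusted p = 3.0e-05 by limma and Benjamini-Hochberg). Of 34 asparaginase, amidase and arginase-type genes 6 rose and 1 fell, the latter 0 without control library 2.

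Counts for protein breakdown and amino group transfer are to be read against 6.9% higher and 5.94% lower over all genes tested. Autophagy genes rose in 4.76%, below that share. Aspartic proteases rose in 7.14%, near the share, and fell in 14.3%. Of 21 autophagy genes 1 rose and 0 fell, and none rose without N library 3 or any 1 control library. Of 98 aspartic protease genes 7 rose and 14 fell, the former 4 without N library 3 or control library 1 or 2 and the latter 9 without N library 3 or control library 2 or 3 and 7 without control library 1. Among papain-type proteases Os04g0670500 fell from 76.0, 84.4 and 88.3 to 8.56, 8.13 and 14.7. Of 56 aminotransferases 10 rose, 6 without control library 1, and 9 fell. Os03g0171900, with a class III aminotransferase domain, rose from 1672, 1401 and 1274 to 3574, 4249.9 and 5494, and Os08g0502700, of class V, fell from 3570.4, 4629 and 7469 to 842, 814 and 846. Control library 3 was the highest for Os08g0502700, as it was for the photosynthesis genes.

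Globins, small haem proteins that bind oxygen and help remove nitric oxide, fell in 3 members. HB1 (chromosome 3, 7092864 to 7093988) had 4189.6, 4256 and 4223 normalised reads in control and 341, 526 and 263 under N deficiency. HB2 (chromosome 3, 6624980 to 6626080) had 915, 1104 and 734 and 90.4, 81.3 and 53.8. The differences were, in log2, -3.54 ± 0.216 and -3.61 ± 0.220 (adjusted p = 7.0e-05 and 7.0e-05 by limma and Benjamini-Hochberg). Summed over the 5 globin genes the level was 5155, 5511 and 4997 in control and 451, 643 and 344 under N deficiency. Reads may be shared between globin copies of like sequence. Of the 5 genes 1 rose and 3 fell, and 2 or 3 fell with any library left out.

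Regulators of the nitrate response split within the NIN-like family. Os03g0131100, known as NLP1, rose from 1321, 1299 and 1432 to 3662, 2998 and 3540.4 and Os09g0549450, known as NLP4, from 1357, 1182 and 1640.4 to 3363, 2763 and 2948. Another gene with the RWP-RK and PB1 domains, Os02g0136000 (chromosome 2, 1913422 to 1916137), fell from 1079.6, 1177 and 1248 to 82.7, 59.0 and 56.7, a log2 difference of -4.14 ± 0.161 (adjusted p = 8.7e-06 by limma and Benjamini-Hochberg). The rises of NLP1 and NLP4 were 1.33 ± 0.106 and 1.13 ± 0.137 in log2 (adjusted p = 2.3e-04 and 0.0014 by limma and Benjamini-Hochberg). In control roots the 3 genes stood per length at 17.3 ± 0.565, 20.2 ± 2.92 and 24.7 ± 1.57 RPKM in the order named. Under N deficiency they had 43.0 ± 4.82, 43.3 ± 5.40 and 1.38 ± 0.342. The other 4 of the 7 genes tested were not called.

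Several Myb-like genes fell. NIGT1, which represses nitrate uptake genes, had 125, 127 and 161 normalised reads in control and 26.6, 38.6 and 30.3 under N deficiency, a log2 difference of -2.09 ± 0.215 (adjusted p = 6.7e-04 by limma and Benjamini-Hochberg). Os03g0764600, with a Myb-like domain, had 2358, 2934 and 3779 and 556, 586 and 610.4, a log2 difference of -2.34 ± 0.160 (adjusted p = 1.1e-04 by limma and Benjamini-Hochberg). Os06g0348800, also with a Myb-like domain, fell from 443, 565 and 936 to 72.3, 72.2 and 53.8. Control library 3 was the highest for Os03g0764600 and Os06g0348800, as it was for the photosynthesis genes. Over all 209 genes with such domains 22 rose and 15 fell. Of 28 LOB-domain factors 1 rose, 2 without control library 3, and 3 fell, among them Os03g0609500, which went from 4759, 4405 and 6658 to 1566, 1195 and 1396.

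Kinases that pair with calcineurin B-like calcium sensors (CIPK) rose in 6 and fell in 6 of 31 genes. Os12g0113500 had 1474, 1440.3 and 1557 normalised reads in control and 126, 153 and 169 under N deficiency, and Os11g0113700 had 1529.7, 1653 and 1964 and 131, 189 and 149. Their log2 differences were -3.32 ± 0.127 and -3.46 ± 0.156 (adjusted p = 8.7e-06 and 2.0e-05 by limma and Benjamini-Hochberg). The pair sits in the duplicated ends of chromosomes 11 and 12, so reads may be split between near-identical copies. Os05g0334750 rose from 32.2, 37.8 and 34.4 to 157, 197 and 205 and Os07g0678300 from 1773, 1558 and 2096 to 4508, 4437 and 3903. The 6 that rose were 4 without N library 3 or control library 2.

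NF-YA subunits, which bind the CCAAT box as part of the NF-Y complex, rose in 6 and fell in 0 of 10 genes, with a median of 0.75 and a count of at least 5 with any library left out. Os02g0776400 went from 435, 437 and 549 to 2033, 1531 and 2047. Os03g0647600 went from 495, 500.5 and 563 to 1662, 1472 and 1610.2 and Os07g0158500 from 647, 669 and 599 to 1893, 1492 and 1697. The first pair rose by 1.97 ± 0.147 and 1.61 ± 0.0984 in log2 (adjusted p = 1.7e-04 and 7.0e-05 by limma and Benjamini-Hochberg). Summed over the 10 genes the level was 7414, 7242 and 7915 in control and 15557, 12212 and 14565 under N deficiency.

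Among other factors, the GRAS protein NSP1, needed for symbiotic and strigolactone gene expression, went from 36.8, 37.8 and 46.5 to 565, 599 and 671, by 3.89 ± 0.150 in log2 (adjusted p = 8.7e-06 by limma and Benjamini-Hochberg). Os03g0306700, a bZIP factor, went from 172, 164 and 279 to 1614, 870.3 and 1218 (log2 difference 2.58 ± 0.260, adjusted p = 6.1e-04 by limma and Benjamini-Hochberg). The NAC factor Os08g0433500 rose from 439, 406 and 472 to 1566, 1282 and 1841, and of 106 NAC genes 15 rose and 5 fell, the latter 3 without N library 3 or control library 2 or 3. B-box and CCT genes, many of them clock and flowering regulators, rose in 10 and fell in 9 of 49. Os02g0148000, with a CCT motif, fell from 371, 465 and 965 to 39.0, 25.4 and 17.6, with control library 3 the highest. Os05g0204600, with a B-box, rose from 14.96, 40.7 and 45.6 to 155, 148 and 133. Leaving out N library 3, control library 1 or control library 2 gave 6 rises for the B-box and CCT list. AP2/ERF factors were near the background with 6 and 7 of 124, and the 6 rises became 2 without N library 3 or control library 1, 1 without control library 2 and 16 without control library 3. The falls became 3 without control library 1 and 4 without N library 3 or control library 2 or 3.

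Among sugar carriers, SWEET genes, which encode sugar exporters, rose in 7 and fell in 2 of 13 genes, with a median of 0.71. The 7 became 2 without N library 3, 3 without control library 2 and 4 without N library 2 or control library 1. The falls became 1 without N library 2 or 3 or control library 1 or 3. Os12g0476200, known as SWEET13, went from 73.7, 81.5 and 45.6 to 644, 976 and 627, by 3.48 ± 0.251 in log2 (adjusted p = 1.5e-04 by limma and Benjamini-Hochberg). Monosaccharide transporters rose in 12 and fell in 1 of 84 genes, with 5 to 14 rises when 1 library was left out. Without N library 1, 2 or 3 the count was 6, 7 and 6, and without control library 1 or 2 it was 5. The fall became 2 without N library 2 and 0 without N library 3 or any 1 control library. Os04g0454200 of this family went from 161, 146 and 220.4 to 552, 584 and 652.

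Sucrose and trehalose enzymes rose in 2 and fell in 9 of 59 genes, and the falls were 7 to 9 with any library left out. Os08g0414700, with trehalose-phosphate synthase and phosphatase domains, fell from 264, 314 and 285 to 59.0, 55.9 and 75.3. Os02g0753000, a trehalose-phosphatase, fell from 1507, 1309 and 2064 to 758, 516 and 528. Os03g0224300, which has both domains, rose from 1390.4, 1307 and 1574 to 2037, 2149 and 2499. In log2 they differed by -2.17 ± 0.165, -1.43 ± 0.199 and 0.64 ± 0.115 (adjusted p = 1.9e-04, 0.0025 and 0.0075 by limma and Benjamini-Hochberg).

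Cell wall families were called in both directions, and cellulose synthases of the secondary wall rose. The cellulose synthases Os01g0750300, Os10g0467800 and Os09g0422500, known as CesA4, CesA7 and CesA9 and needed for the secondary wall of rice, rose together. Os01g0750300 went from 2779.7, 2573 and 4426 to 7228, 10287 and 10034, Os10g0467800 from 494, 468 and 815 to 1363, 1972 and 1994 and Os09g0422500 from 852, 844 and 1413 to 2306, 3041 and 3169.6. The differences were, in log2, 1.52 ± 0.222, 1.61 ± 0.230 and 1.48 ± 0.212 (adjusted p = 0.0031, 0.0028 and 0.0028 by limma and Benjamini-Hochberg). Control library 3 was the highest control in all 3 genes and still below every N-deficient library. Of 28 cellulose synthase genes 8 rose and 1 fell, and 6 to 9 rose with 1 library left out, while 3 fell without N library 2.

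COBRA-like proteins, which help arrange cellulose, rose in 6 and fell in 0 of 10 genes, with a median of 0.75. Os03g0416200, known as BC1 for the brittle stems of its mutant, went from 100.1, 81.5 and 148 to 282, 409.7 and 301. The count of 6 was 4 without N library 1 or 3 or control library 2. Fasciclin-like arabinogalactan proteins rose in 8 and fell in 1 of 20, with 4 rises without N library 3 or control library 2 and 5 without N library 2 or control library 1, and 2 falls without N library 2. CASP-like proteins, the family of the Casparian strip membrane proteins (DUF588 domain), rose in 11 and fell in 0 of 35. That count was 6 without N library 3 or control library 2 and 7 without control library 1, and 1 fell without N library 1 or 2. Os12g0610800 of this family went from 49.5, 38.8 and 46.5 to 162, 216 and 253.

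Enzymes on the route from phenylalanine to lignin and phenolic esters were read by family. Phenylalanine ammonia lyases, which make the first step and release ammonium, rose in 4 and fell in 0 of 9 genes. Os02g0626400 went from 12686, 13651 and 17884 to 35033, 37182 and 45624, Os04g0518100 from 5572, 5889 and 7608 to 12272, 17155 and 15279.7 and Os05g0427400 from 3421, 4148 and 6469.6 to 9474, 10586 and 12335. Their log2 differences were 1.42 ± 0.180, 1.23 ± 0.169 and 1.25 ± 0.223 (adjusted p = 0.0017, 0.0024 and 0.0076 by limma and Benjamini-Hochberg). Summed over the family the level was 114866, 120484 and 170985 in control and 231001, 254748 and 289205 under N deficiency. O-methyltransferases rose in 6 and fell in 1 of 34, with 0 falls without N library 1 or 3 or control library 2 or 3, and their sum went from 62977, 63162 and 77898 to 114739, 136459 and 140484.

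BAHD acyltransferases, which join acyl groups to alcohols and amines, rose in 28 and fell in 6 of 98 genes. Os06g0185500 went from 576, 320.1 and 790.5 to 4016, 6325 and 9506 and its neighbour Os06g0185300 from 282, 259 and 292 to 1315, 1851 and 2428. They rose by 3.56 ± 0.370 and 2.70 ± 0.198 in log2 (adjusted p = 6.9e-04 and 1.6e-04 by limma and Benjamini-Hochberg). Os01g0854000 went the other way, from 1824, 2631 and 6094 to 339.5, 429 and 457, with control library 3 the highest. The count of 28 was 18 without control library 1 or 2. Laccases and other multicopper oxidases, which include the enzymes that couple lignin units, rose in 15 and fell in 3 of 47, with 10 rises without N library 3 or control library 2 and 1 fall without control library 2. Os03g0273200 went from 140.4, 96.0 and 191 to 2826, 4219 and 5309, Os01g0127200 from 145, 168 and 92.1 to 613, 1346 and 2035 and the nearby LPR3 from 71.4, 54.3 and 70.7 to 279.6, 295 and 458. In log2 they differed by 4.85 ± 0.281, 3.17 ± 0.403 and 2.35 ± 0.217 (adjusted p = 5.7e-05, 0.0017 and 4.3e-04 by limma and Benjamini-Hochberg).

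**Figure D3:**
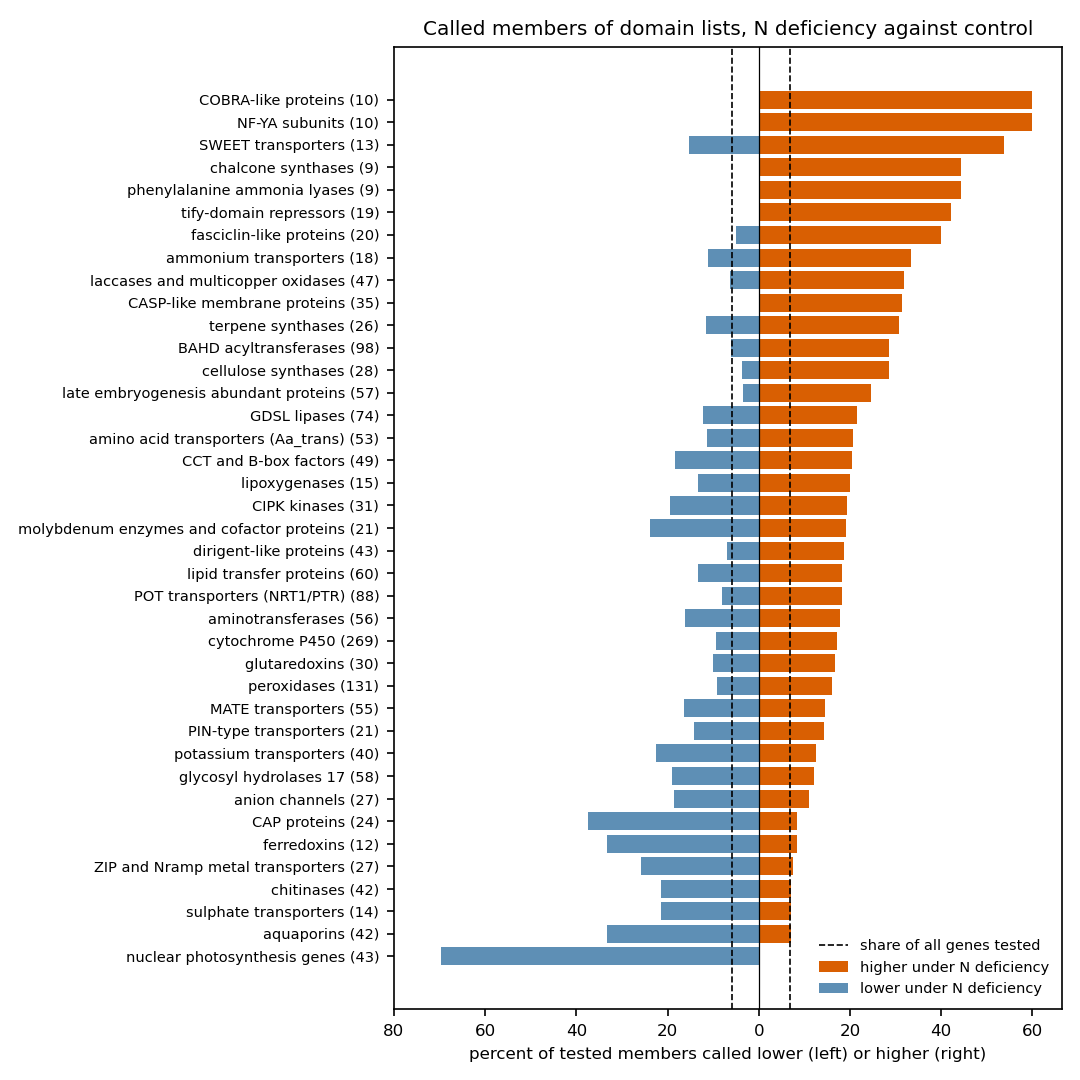
Percent of tested members called higher (right) or lower (left) under N deficiency for the 39 domain lists with at least 9 tested members and at least 25% called. The number tested stands in brackets, and the dashed lines mark the shares of all genes tested, 6.9% higher and 5.94% lower. COBRA-like proteins, fasciclin-like proteins, cellulose synthases, laccases and phenylalanine ammonia lyases lean to the right, and glycosyl hydrolases 17, aquaporins, CAP proteins, chitinases and photosynthesis genes to the left.

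Peroxidases moved both ways, with 21 higher and 12 lower of 131 and a median of -0.047. The falls were 22 without N library 2. Os06g0274800 rose from 389, 378 and 458 to 1363, 1904 and 2303 and Os04g0688300 fell from 735, 814 and 564 to 129, 141 and 155. Expansins, which loosen walls during growth, rose in 5 and fell in 6 of 51, and leaving out a library gave 3 or 4 rises. The falls became 1 without N library 1 or control library 2, 2 without N library 3 or control library 1, 3 without control library 3 and 9 without N library 2. The rises were 3 without N library 2 or 3 or control library 2 or 3. Os10g0555900 of this family rose from 1087, 1315 and 1321 to 2316, 3454 and 3249. The hydrophobic seed protein gene Os03g0103200 went from 8575, 7175 and 11426 to 26793, 35027 and 61117, while its list had 2 higher and 4 lower of 41, the falls being 11 without N library 2.

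Families of specialised metabolism differed in direction. Dioxygenases that use oxoglutarate and iron rose in 8 and fell in 11 of 100, the latter 7 without N library 1. MATE transporters rose in 8 and fell in 9 of 55, the latter 5 without control library 1. Cytochromes P450 rose in 46 and fell in 25 of 269, UDP-glycosyltransferases in 25 and 7 of 154, and terpene synthases in 8 and 3 of 26. The 25 glycosyltransferases were 13 without N library 3 and 15 without control library 2, and the falls 4 without N library 1. A terpene synthase locus numbered apart from the annotation (chromosome 4, 16006919 to 16013230) had 9.21, 11.6 and 27.0 normalised reads in control and 1272, 765 and 1057 under N deficiency, a log2 difference of 6.04 ± 0.364 (adjusted p = 7.0e-05 by limma and Benjamini-Hochberg). Os04g0178300, a terpene synthase known as CPS4 of the momilactone phytoalexin cluster, went from 261, 489.8 and 453 to 1441, 1042 and 917. The P450 gene Os02g0529800 rose from 5.75, 12.6 and 13.02 to 104, 67.1 and 99.8 and Os02g0569400 fell from 94.4, 94.1 and 176 to 25.7, 10.2 and 14.7.

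Of 82 glutathione transferases 12 rose and 6 fell, and without N library 2 the falls were 10. Os03g0283200 rose from 94.4, 108 and 124 to 790.4, 740.2 and 875, by 2.88 ± 0.135 in log2 (adjusted p = 2.2e-05 by limma and Benjamini-Hochberg). Os10g0530400 fell from 490.3, 462 and 665 to 106, 92.5 and 85.1. ABC transporters rose in 17 and fell in 3 of 119, with 11 rises without N library 3, 10 without control library 1 and 8 without control library 2. Os01g0615500 of this family went from 235, 164 and 194 to 492, 645 and 840.3. In the jasmonate pathway, tify-domain repressors rose in 8 and fell in 0 of 19 with a median of 0.80, and the count was 3 without N library 3, 4 without control library 1 or 2 and 5 without N library 1.

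Other hormone families had calls in 1 or both directions, to be read against 6.9% higher and 5.94% lower over all genes tested. Of 15 lipoxygenases, which start jasmonate synthesis, 3 rose and 2 fell, and 1 rose without N library 1 or 3 or control library 1. Of 39 AUX/IAA genes, repressors in auxin signalling, 4 rose and 4 fell. The falls became 7 without N library 2 and 2 without N library 3 or any 1 control library, and the rises became 2 without N library 3. SAUR genes rose in 2 and fell in 2 of 41, below both shares, with 1 fall without N library 1 or 3 or control library 1 or 3. PIN-type auxin carriers rose in 3 and fell in 3 of 21. Os01g0802700 rose from 648, 505 and 777 to 1556, 1124 and 1365 and Os09g0491740 fell from 864, 766 and 978 to 356, 215 and 265. The response regulator Os09g0532400, which carries a CCT motif like the clock's pseudo-response regulators, fell from 1242, 1153 and 1639 to 409, 385 and 369.8. The cytokinin dehydrogenase gene Os01g0775400 rose from 200.3, 197 and 222 to 449.9, 473 and 478. As families, response regulators rose in 0 and fell in 1 of 21. Cytokinin enzymes rose in 2 and fell in 0 of 19, with 1 to 3 rises when 1 library was left out.

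Of 42 aquaporin genes, which encode water channels, 3 rose and 14 fell, with a median of -0.40, and 13 to 16 fell with any library left out. The rises became 1 without any 1 control library. Summed over the family the level was 499363, 390498 and 370602 normalised reads in control and 225972, 220758 and 220670 under N deficiency. Os01g0975900 had 67172, 45285 and 31735 and 10480.3, 6213 and 7709.8, and Os04g0521100 had 8581, 6039 and 5755 and 2281, 1678 and 1376. Control library 1 was the highest in both genes, and the groups did not overlap, which the naming rule required. They fell with log2 differences of -2.53 ± 0.288 and -1.94 ± 0.210 (adjusted p = 0.001 and 8.3e-04 by limma and Benjamini-Hochberg). Os01g0202800 rose from 38.0, 15.5 and 23.2 to 136, 145 and 226, and LSI1, an aquaporin-type silicon channel, did not pass.

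Potassium and sodium carriers rose in 5 and fell in 9 of 40 genes, with 6 falls without control library 1. The locus Os06g0701700, with a cation transport domain, fell from 2205, 1567 and 2161 to 336, 424 and 390.3, and Os04g0607600, of the same domain family, fell from 453, 336 and 248 to 22.8, 14.2 and 23.5. The differences were, in log2, -2.35 ± 0.153 and -4.02 ± 0.278 (adjusted p = 9.6e-05 and 1.2e-04 by limma and Benjamini-Hochberg). The potassium transporters Os03g0576200 and Os08g0466200 rose, from 3.45, 18.4 and 6.51 to 107, 129 and 88.0 and from 20.7, 27.2 and 68.8 to 205, 173 and 162. Of the SPX domain genes, which act in phosphate signalling and transport, 2 of 13 rose and 1 fell, and 0 to 4 rose with a library left out (none without N library 3 or control library 2, 1 without N library 1 or 2 or control library 1 and 4 without control library 3).

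Genes of iron and metal handling included some of the largest falls. Rice takes up iron with phytosiderophores, which are made from nicotianamine. The nicotianamine synthases Os03g0307200 and Os03g0307300, a pair close together on chromosome 3 whose reads may be shared, fell. Os03g0307200 had 1423, 629 and 646 normalised reads in control and 7.61, 3.05 and 2.93 under N deficiency. Os03g0307300 had 1262, 629 and 578 in control and 0, 3.05 and 0 under N deficiency, 3 reads in all. Os02g0306401, known as NAAT1, the next enzyme after nicotianamine, fell from 1667, 1213 and 1461 to 133, 116 and 83.2, by a log2 difference of -3.71 ± 0.189 (adjusted p = 3.0e-05 by limma and Benjamini-Hochberg). Os02g0650300, known as YSL15, which imports iron-phytosiderophore complexes, had 219, 177 and 102 and 1.90, 1.02 and 0.978.

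Metal transporters of the Nramp type fell as well. Os07g0258400, had 512, 328 and 239 in control and 15.2, 22.4 and 11.7 under N deficiency, and Os02g0131800, which overlaps a low-level model on the opposite strand, had 6396, 4740 and 5534 and 1702, 1782 and 1801. Of 4 VIT-type genes 1 rose and 1 fell, and of 3 ferritin-type genes tested 1 rose. VIT1.2, of a family that moves iron into the vacuole, went from 207, 194 and 219 to 1172, 993 and 1214 and Os04g0404400, with a ferritin-like domain, from 18.4, 12.6 and 27.0 to 533, 478 and 473. The log2 differences of the 4 genes were -4.34 ± 0.324, -1.65 ± 0.121, 2.44 ± 0.114 and 4.67 ± 0.256 (adjusted p = 1.7e-04, 1.6e-04, 2.2e-05 and 4.4e-05 by limma and Benjamini-Hochberg). The other nicotianamine synthase, Os07g0689600, rose from 676, 779.8 and 827 to 1732, 1538 and 1959. ZIP and Nramp genes as a whole rose in 2 and fell in 7 of 27.

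Of 42 chitinase genes, which act on fungal walls, 3 rose and 9 fell, and their summed level went from 108779, 97439 and 104870 in control to 29741, 34485 and 39003 normalised reads under N deficiency. Os05g0247100, with a glycosyl hydrolase 18 domain, had 72110.4, 59796 and 64789 and 7868, 10697 and 14517, and Os05g0399300, a class I chitinase, had 18234, 18383 and 19246 and 4122, 3188 and 4212. They fell with log2 differences of -2.61 ± 0.224 and -2.29 ± 0.132 (adjusted p = 3.1e-04 and 5.7e-05 by limma and Benjamini-Hochberg). Most of the summed level in control, and nearly all of its fall, lay in Os05g0247100 and Os05g0399300, so the sum does not describe the other members. Os09g0494200, another class I chitinase, rose from 4942, 5086 and 4967 to 7898, 10480.4 and 9664.

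CAP proteins, the family of pathogenesis-related protein 1, rose in 2 and fell in 9 of 24 genes, with 6 falls without control library 2. The rises became 0 without N library 2 or 3 and 1 without N library 1 or control library 1. Os07g0129300 had 10517, 9884 and 10327 in control and 133, 474 and 300.3 under N deficiency, with N library 1 the lowest, a log2 difference of -5.26 ± 0.377 (adjusted p = 1.4e-04 by limma and Benjamini-Hochberg). Glycosyl hydrolases 17, which include glucanases, rose in 7 and fell in 11 of 58, among them Os07g0539900, which went from 2972, 2822 and 2563 to 475, 381 and 333. Late embryogenesis abundant proteins, which protect cells during drying, rose in 14 and fell in 2 of 57, while Os01g0256500 fell from 104982, 107248 and 120565 to 31678, 25922 and 32849.6. The count of 14 was 9 without N library 3 or control library 1 and 7 without control library 2, and 1 fell without N library 1 or 3 or control library 1 or 2. Germin-like cupin genes included the falls of Os08g0231400, from 11985, 12461 and 8977 to 2811, 1715 and 2100.4, and Os08g0189900, from 2991, 3445 and 3206 to 1164, 672 and 1122.

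**Figure D4:**
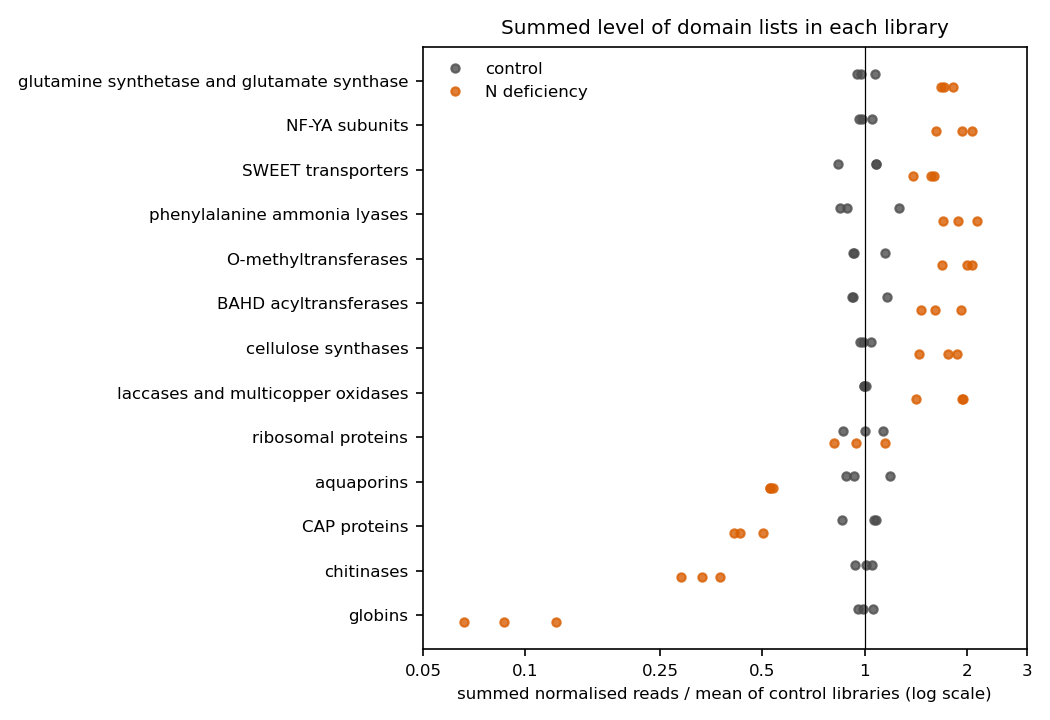
Normalised reads summed over each list and divided by the mean of the control libraries (x axis, log scale), 1 point per library. Glutamine synthetase, NF-YA, sugar export, phenylpropanoid and wall lists lie above 1 in every N-deficient library, ribosomal proteins overlap with control, and aquaporins, CAP proteins, chitinases and globins lie below. A sum follows its highest genes, and nearly all of the fall in chitinases lay in Os05g0247100 and Os05g0399300.

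Among genes of growth machinery, 2.73% of ribosomal protein genes and 3.1% of cyclin genes were called, against 12.8% of all genes tested. Histones were called in 12.5% and kinesin motor genes in 11.1%, all of them higher, against 6.9% higher over all genes tested. Of 36 kinesin genes 4 rose and 0 fell. Of 293 ribosomal protein genes 0 rose and 8 fell, with a median of -0.053, and the falls were 3 without N library 1 or 3 or control library 2 or 3 and 4 without N library 2, and 1 rose without N library 3. Their summed level overlapped between the groups, at 469375, 531372 and 406219 in control and 442996, 538451 and 381315 under N deficiency. Of 9 MCM genes, needed to license DNA replication, 0 passed under limma, 3 had an unadjusted p under 0.05, and edgeR and DESeq2 called 0, with a median difference of 0.31. Of 32 cyclin genes 1 fell, with 1 rise without N library 1, and of 40 histone genes 5 rose, 2 of them without N library 2 or 3 or control library 1 and 3 without control library 3. BAG proteins, co-chaperones that bind Hsp70, rose in 5 and fell in 0 of 6. Os08g0546100 of that family went from 5009, 4790.5 and 5881 to 10184, 13270.2 and 12968, and the count of 5 was 2 without control library 2 and 3 without N library 2 or 3.

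Other large changes lay outside these families. Os08g0150700, with a phloem protein 2 domain, rose from 64.5, 56.3 and 91.1 to 1321, 1208 and 1785, by 4.34 ± 0.208 in log2 (adjusted p = 2.3e-05 by limma and Benjamini-Hochberg). Os12g0555100, with a polyketide cyclase domain, rose from 116, 186 and 318 to 4133, 2814 and 3351. Os03g0291200, with a PMR5 domain found in wall acetylation proteins, rose from 27.6, 9.70 and 7.44 to 156, 472 and 442. Its model overlaps ASN1 by 84 bases on the opposite strand, and the sources used here do not give the strand setting of the counting. Os02g0137700, with a complex I assembly domain, fell from 2605, 3419 and 5938 to 73.2, 103 and 139. Control library 3 was the highest for Os02g0137700, as it was for the photosynthesis genes, and a link was not tested. Os10g0100700, of the SOR/SNZ family that makes vitamin B6, fell from 43.7, 209.5 and 271 to 3.80, 3.05 and 4.89, with control library 1 the lowest control.

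A gene seen in 1 group only was rare. With at least 10 reads in each library of one group and 0 in all of the other, 7 genes were seen in control only and 0 under N deficiency only. The highest was Os12g0236225 (chromosome 12, 7455334 to 7457843), with 215, 186 and 131 reads in control and 0 in the N-deficient libraries. Against a floor of 3 reads over the N-deficient group its level in control was at least 182-fold higher, counting error only. None of the 7 carries a domain description, and 2 are loci numbered apart from the annotation.

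Runs of neighbouring genes called in the same direction were counted along the 12 chromosomes. There were 40 runs of at least 3 tested neighbours that all rose, holding 133 genes, and 43 that all fell, holding 136. Some runs in each direction hold overlapping gene models, which can share reads. The number of runs to be expected from the shares of all genes called was not worked out. The longest, of 6 genes on chromosome 3 (1567984 to 1602046), rose by 0.47 to 0.76 on the log2 scale and holds Os03g0128100 and Os03g0128200, both with domains of glucan synthase, which makes callose. The call of Os03g0128200 was lost without N library 1, control library 1 or control library 2, with a highest adjusted p of 0.0684 by limma and Benjamini-Hochberg. In the same run Os03g0127950 lost its call in 7 of 14 alternatives, EPlOSAG00000005842 in 5 and Os03g0127900 in 1, without control library 1. A run of 5 on chromosome 1 (26202814 to 26238284) rose by 1.30 to 3.63 and holds 2 GDSL lipase genes, Os01g0649400 and Os01g0649900. A run of 5 on chromosome 6 (2453481 to 2462587) fell, with differences from -2.47 to -1.11, and holds no gene with a domain description. Os06g0147100 in it had 685, 697 and 581 normalised reads in control and 151, 81.3 and 129 under N deficiency. Os06g0147250 and a locus numbered apart from the annotation, both in this run, each lost their call in 3 alternatives. In the run on chromosome 1, 1 pair of neighbouring models overlaps.

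The direct contrast of N-deficient with P-deficient roots shows where the values differ between the deficiencies. Control libraries entered that fit through the size factors, the filter on group means and the shared estimate of the spread. Reads were rescaled over 9 libraries. Of 32806 genes tested 455 were higher under N deficiency, 1.39%, and 786 were lower, 2.4%, so that 3.78% were called. The number called was 733, 689 and 754 without N library 1, N library 3 and P library 2, against 1241 with all libraries. NRT2.4 had 8668, 6911 and 7868 rescaled reads under N and 67.4, 52.1 and 112 under P deficiency. NAR2.1 had 29691, 21350.3 and 31609.8 and 979, 1166 and 614. DUR3 had 15923, 9834 and 17493 and 882, 1009.7 and 560.3. In these genes the groups were far apart, with N minus P log2 differences of 6.71 ± 0.286, 4.93 ± 0.233 and 4.14 ± 0.287 (adjusted p = 6.3e-07, 1.4e-06 and 2.2e-05 by limma and Benjamini-Hochberg).

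Several regulators were far lower under N than under P deficiency. The RWP-RK gene Os02g0136000 had 80.6, 57.4 and 55.2 rescaled reads under N deficiency and 2700.4, 2458 and 2306 under P deficiency, with 1054, 1146 and 1215 in control. NIGT1 had 25.9, 37.6 and 29.5 and 1467, 1346 and 1292, with 123, 124 and 157 in control. The CIPK gene Os12g0113500 had 122, 148 and 165 and 2369, 2207 and 2161. The N minus P log2 differences of the 3 genes were -5.27 ± 0.145, -5.43 ± 0.163 and -3.95 ± 0.114 (adjusted p = 5.6e-08, 6.1e-08 and 5.8e-08 by limma and Benjamini-Hochberg). For Os12g0113500 control had 1440, 1403 and 1516. In each of the 3 the P-deficient libraries lay above control and the N-deficient libraries below it.

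The ureide permease Os12g0503000 was lower under N than under P deficiency by a log2 difference of -5.74 ± 0.167, the CAP gene Os07g0129300 by -6.82 ± 0.357 and the chitinase Os05g0247100 by -2.87 ± 0.281 (adjusted p = 5.8e-08, 2.6e-06 and 2.6e-04 by limma and Benjamini-Hochberg). The asparaginase Os04g0650700 was higher by 2.62 ± 0.208 (adjusted p = 6.2e-05 by limma and Benjamini-Hochberg). By family, chitinases gave 0 higher and 9 lower of 42, the latter 5 without N library 1, and SPX proteins 0 and 9 of 14, the latter 8 or 9 with any library left out.

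Photosynthesis genes gave 0 higher and 11 lower of 43 against P deficiency. The 11 became 6 without N library 1 or 2, 5 without N library 3 or P library 1, 7 without P library 2 or control library 2 and 18 without control library 1 or 3. Aquaporins gave 0 higher and 5 lower of 43, with 3 lower without N library 2 or 3, P library 1 or 2 or control library 2 and 8 lower without P library 3. Counts of wall and phenylpropanoid families were small, and are to be read against 1.39% higher and 2.4% lower over all genes tested. Glycosyl hydrolases 17 gave 1 higher and 8 lower of 58, the latter 5 without N library 3, and the 1 higher was lost without any 1 N library, P library 1 or 2 or control library 1. BAHD acyltransferases gave 3 higher and 5 lower of 96, with 3 lower without N library 3 or P library 1 or 2. Peroxidases gave 4 higher and 3 lower of 131, with 1 to 7 higher and 1 to 13 lower when a library was left out, the lowest of both without N library 3 or P library 2 and the highest of both without P library 3. Of 9 phenylalanine ammonia lyases 0 were called by limma or edgeR and 2 had an unadjusted p under 0.05. For COBRA-like genes the count was 0 of 10 by both tools, 1 without N library 2, and 1 had an unadjusted p under 0.05. Of 28 cellulose synthases 1 was higher, 2 without N library 1 or control library 3, and 1 was lower, 2 without P library 3.

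Single genes that rose against control did not pass against P deficiency. The phenylalanine ammonia lyase Os02g0626400 had 34114, 36173 and 44363 rescaled reads under N and 30072, 27050.5 and 23922 under P deficiency, and a difference of 0.50 ± 0.188. CesA4, Os01g0750300, had 7039, 10008 and 9757 and 7123, 5641 and 5661, a difference of 0.53 ± 0.217. The hydrophobic seed protein gene Os03g0103200 had 26090, 34076 and 59428 and 43156, 45213 and 67860.5, with overlapping groups and a difference of -0.44 ± 0.316. NSP1 had 550.1, 583 and 653 and 1044, 1027 and 741, a difference of -0.64 ± 0.158 (adjusted p = 0.056 by limma and Benjamini-Hochberg). For the first 3 the adjusted p was 0.21, 0.25 and 0.54 (limma, Benjamini-Hochberg), which does not show that the deficiencies act alike.

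**Figure D5:**
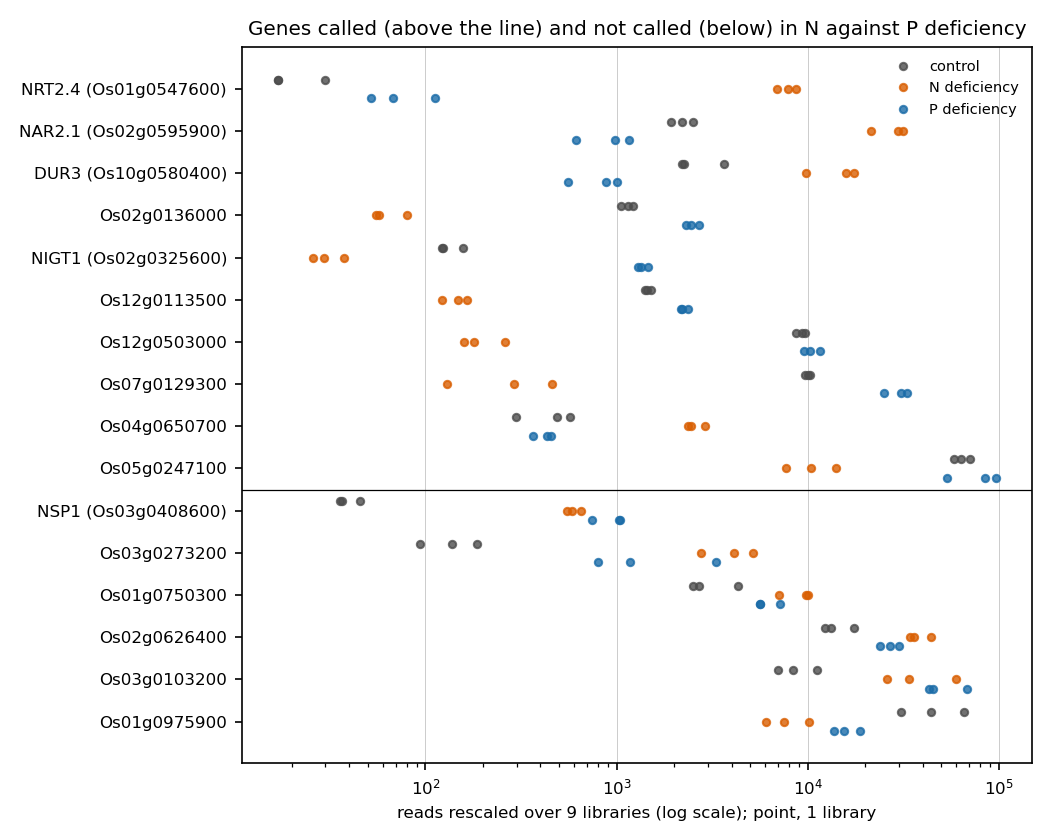
Reads rescaled over 9 libraries (x axis, log scale) of 16 genes in control, N-deficient and P-deficient libraries, 1 point per library. Above the line stand 10 genes called in the contrast of N with P deficiency and below it 6 that were not called. The regulators Os02g0136000, NIGT1 and Os12g0113500 lie below control under N deficiency and above it under P deficiency.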

How the data were processed

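Root RNA-seq libraries of 3 control, 3 N-deficient and 3 P-deficient samples were used. The submitters' processing notes name HISAT2 2.0.5, and their listed assembly could not be matched to rice, so the sources used here do not state the rice build behind the coordinates. The deposited tables hold normalised values (a read signal per gene) that were found to be reads divided by 1 size factor per library. Whole reads came out for 100% of values at a tolerance of 0.001 of a read. The authors' deposited log2 fold changes and p-values were not used.

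Groups followed the labels. limma 3.58.1 with a trend was fitted in R 4.3.3 to log2(value + 1) of the 6 libraries, for genes with a group mean of at least 1. For N against P deficiency, reads of 9 libraries were rescaled by median-of-ratios size factors and fitted together. Benjamini-Hochberg adjustment ran over all genes tested, at a threshold of 0.05. Alternatives were edgeR 4.0.16 and DESeq2 1.42.0 on recovered reads, a pseudocount of 0.1, no filter, a group mean of at least 10, a replicate block, a joint fit of all 9 libraries, and the omission of single libraries. The fitting code was tested on simulated data, where it called 35% of 2-fold and 99% of 4-fold changes. The spread between simulated libraries was set by hand and not taken from these libraries, so those shares need not hold here.

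The members and lists were chosen with earlier results of these data known. Named genes were the 12 largest rises and falls, up to 3 called members a list and direction, a list of known loci, and genes of the longest runs and of the read absence list. The largest changes and the list members were taken only from called genes whose groups did not overlap. Lists came from protein domain descriptions.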

Additional observations from a re-analysis of the deposited data

How the results depend on the processing

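Against control, 4194 genes were called, and fits on all libraries (edgeR, DESeq2, other pseudocount and filters, 1 fit over 9 libraries) gave counts within 1.5 times of this. With 1 library left out the number called ranged from 2622 to 3710, with 1317 to 2195 higher and 1234 to 1667 lower. For N against P deficiency it ranged from 689 to 1577, with 153 to 514 higher and 527 to 1063 lower. The cause was not tested. Of 525 called genes that the naming rule gave, 164 were lost in at least 1 alternative and 0 reversed direction. The labels do not say whether replicate numbers pair the samples. Same-numbered control and N-deficient libraries had correlations of -0.09, 0.27 and 0.19 in their deviations, and unlike-numbered ones -0.32 to 0.17. Deviations from means of 3 libraries cannot decide whether the numbers mark pairs. With the replicate block 2530 genes were higher and 2131 lower against control, and 546 higher and 976 lower against P deficiency. Calls were rarer at low levels, where 2.62% of genes were called at a mean under 10 normalised reads against 22.1% at a mean over 1000.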
